A study of Mus musculus with 16 samples.

Results

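Collagen chains, the alpha chains that assemble into collagen molecules, were followed in RNA of mouse prostate. The chains were taken by name, as every row of the expression table whose symbol reads Col, a type number, a and a chain number, leaving out Col17a1. The rule used no measured value and found 43 of the 29535 genes in the table. Of these, 37 had a mean level over all libraries of at least the log2 of 10, about 3.3, and are called expressed here. The study sequenced poly-A selected RNA from 12-month-old mice on a hybrid 129/SvImJ and C57Bl/6J background. The groups were homozygous mutant (-/-) mice on finasteride (n = 5 libraries), -/- mice on vehicle (n = 3), wild-type (+/+) mice on finasteride (n = 5) and +/+ mice on vehicle (n = 3). Mutant and wild-type mice differ at 1 gene in the labels, and finasteride is a drug that blocks the steroid 5-alpha-reductases, which turn testosterone into dihydrotestosterone. The labels give prostate as the tissue, with no lobe, no dose and no length of treatment. Whether the libraries of a group come from different animals is not stated, and a p-value here reflects only how these libraries vary, which may be technical.

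Collagens are helical proteins of the extracellular matrix, each wound from several alpha chains. Fibrillar collagens form the tensile fibres of connective tissue, which are made mainly by fibroblasts, and are cut and crosslinked outside the cell. Type IV collagen forms the sheet-like network of basement membranes under epithelia and around vessels, smooth muscle, nerves and fat cells, together with laminins, nidogens and perlecan. Type VI collagen forms beaded filaments near cells, the fibril-associated collagens with interrupted helices (FACIT) decorate the surface of fibrils, and smaller classes anchor or bridge these networks. In the prostate, collagens make up much of the stroma around the glands, and the epithelium rests on type IV collagen.

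The deposited values are normalized log2 levels and no counts are given, so read depth is unknown and no counting error can be stated. Taken out of log2, all genes together reached log2 24.07 to 24.16 in the 5 libraries of mutant finasteride mice, against 24.31 to 24.55 elsewhere. Each library was compared with weighted means of 2 others from the same group, over genes with a log2 level of at least 8. The residual given is a root mean square, taken after subtracting the median residual. Of the 16 libraries, 5 were close to such a mean, with a residual of 0.0704 to 0.0970 (log2). These were mutant finasteride replicates 3 and 4, mutant vehicle replicate 3, wild-type finasteride replicate 4 and wild-type vehicle replicate 3. They may not be independent samples, so calls and counts over all 16 libraries are set beside those over the other 11. Fewer libraries give less power, and 60 of the 114 calls made over 16 libraries in the 5 comparisons below did not pass over 11. Wild-type finasteride replicate 2 and mutant finasteride replicate 2 stood furthest from the rest of their groups, with residuals of 0.463 and 0.377. A wild-type finasteride library, replicate 1, followed at 0.312. Without the first 2 of these, 169 of 185 combinations of chain and comparison kept their direction and their side of the threshold, 15 newly passed and 1 no longer passed.

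The expressed chains were 10 of 11 fibrillar chains, all 6 type IV and all 6 type VI chains, 6 of 9 FACIT chains, both multiplexins (Col15a1 and Col18a1), Col7a1 as the only anchoring fibril chain, 2 of 3 short-chain collagens, 2 of 3 transmembrane collagens, and Col26a1 and Col28a1. The 6 chains under the level were Col10a1 at a mean of 3.09, Col25a1 at 2.90, Col22a1 at 2.66, Col9a1 at 2.42, Col2a1 at 1.99 and Col19a1 at 1.91. Col2a1, Col9a1 and Col10a1 are best known from cartilage, and of 5 cartilage markers Acan, Matn1 and Matn3 were below that level in every group. The other 2, Hapln1 at a mean of 3.39 and Sox9 at 10.60, were tested. Sox9, a transcription factor that prostate epithelium also expresses, makes up most of the marker sum, which was 11.19 to 11.37 in mutant finasteride, 10.59 to 10.76 in mutant vehicle, 9.49 to 10.21 in wild-type finasteride and 10.59 to 10.82 in wild-type vehicle libraries. Both were lower on finasteride in wild type and had a positive interaction, and over 11 libraries 1 of them, Sox9, passed in each. Of all tested genes, 21.7% and 29.4% did so over 16 libraries, and 5.06% and 17.1% over 11. Col10a1 overlaps Nt5dc1, with a mean of 8.28, in the RefSeq annotation, so part of its reads may be that gene's. Just inside the level stood Col26a1 at 3.38, Col24a1 at 3.81 and Col9a3 at 3.95. Col26a1 reached the level only through mutant finasteride libraries, since its mean without them was 2.68, so its differences from that group were partly set by the choice of level. Conversely, Col10a1 would have passed without mutant vehicle libraries, at 3.36.

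Per kilobase of exon, Col4a6 was the most abundant chain, at 1695 normalized units per kb on the linear scale, averaged over the 16 libraries. Col3a1 followed at 557 and Col1a2 at 486, then Col6a1 at 398, Col4a1 at 330 and Col1a1 at 318 units per kb. The first rank of Col4a6 did not hold in mutant finasteride libraries. There its mean log2 level was 10.66, below Col3a1 at 11.68 and Col1a2 at 11.41, which have shorter exons in total. The lowest of the expressed chains were Col24a1 at 2.12, Col6a6 at 3.63 and Col11a1 at 3.68 units per kb. Exon lengths came from an annotation of another genome build (GRCm38), and the division by length assumes that the deposited values scale with reads per gene.

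**Figure D1:**
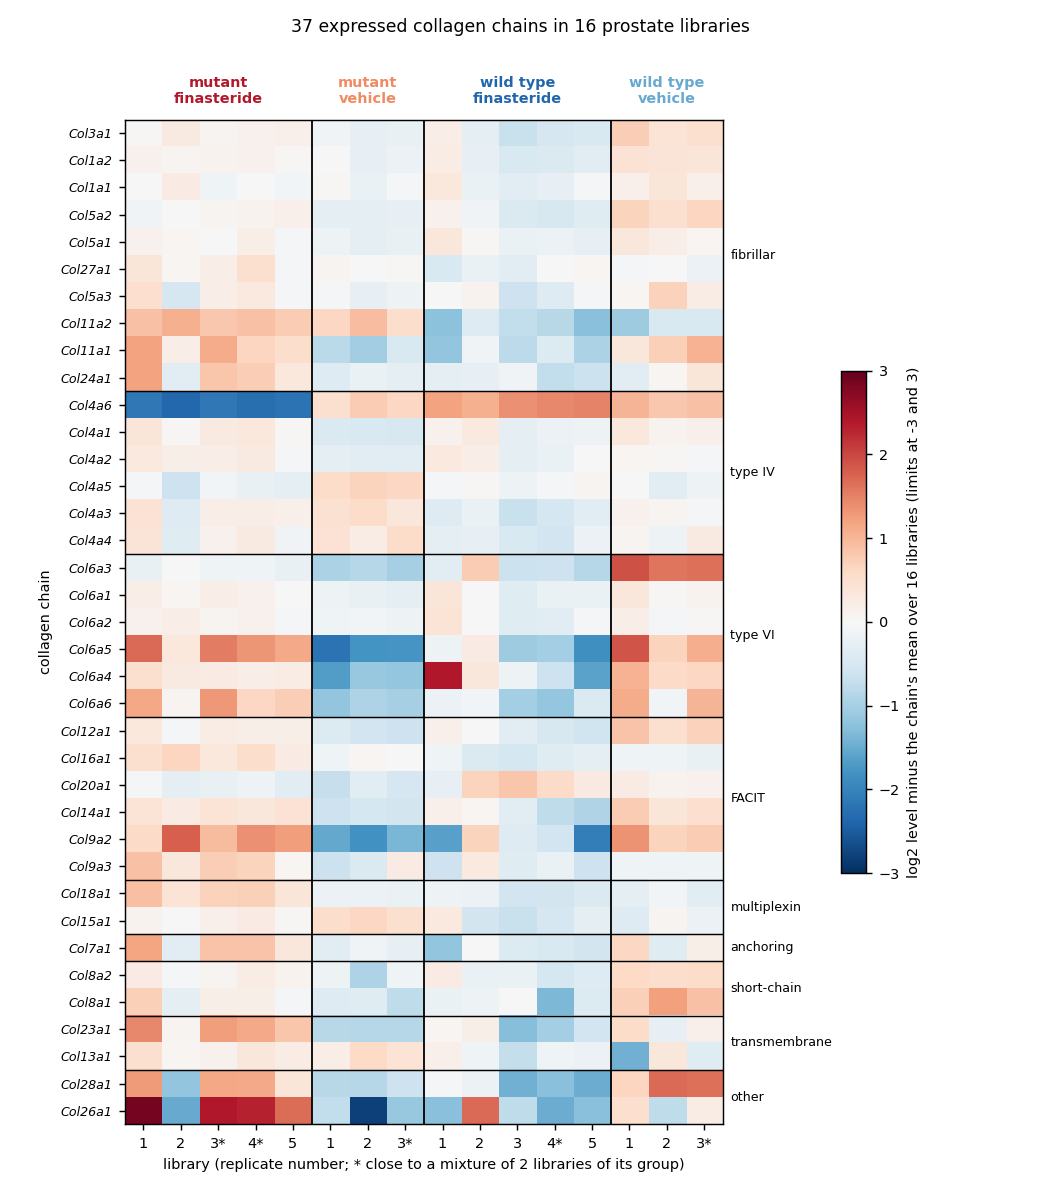
Log2 level of the 37 expressed collagen chains (rows, grouped by class and ordered by mean level) in the 16 libraries (columns, grouped), each shown as the difference from the chain's own mean over the 16 libraries. Col4a6 is low in all 5 mutant finasteride libraries, while most rows of the other classes are low in the 3 mutant vehicle libraries and in most of the 5 wild-type finasteride libraries.

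Each chain was tested with limma (a linear model with moderated variances) within a fit of 16506 genes, and passed where its p-value adjusted over all of these was under 0.05. Differences are given as log2 difference ± SE, finasteride minus vehicle or mutant minus wild type. The 4 comparisons between pairs of groups share libraries, so their results are not independent of one another. Among mice on vehicle, 3 of 37 chains were higher and 19 lower in mutant prostates, with a median log2 difference of -0.47. Over all tested genes, 14.6% were higher and 17.5% lower in that comparison, and the median was 0.0024. Over 11 libraries, 2 chains were higher and 7 lower, against 3.94% and 5.33% of all tested genes. In wild-type mice, 1 chain was higher and 14 lower on finasteride than on vehicle, with a median of -0.48, where 18.4% of all tested genes were higher and 21.7% lower, with a median of -0.022. Over 11 libraries no chain was higher and 6 were lower, against 3.65% and 5.06% of all tested genes. At an unadjusted p under 0.05, limma placed 1 chain higher and 14 lower over these 11 libraries, the higher one being Col4a6 at 0.38 (adjusted p = 0.120).

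In mutant mice the direction was the other way for most chains. There, 21 chains were higher and 3 lower on finasteride than on vehicle, with a median of 0.50, where 25.7% of all tested genes were higher and 22.8% lower, with a median of -0.013. Over 11 libraries, 9 chains were higher and 2 lower, against 10.99% and 9.25% of all tested genes. Among mice on finasteride, 23 chains were higher and 2 lower in mutant than in wild-type prostates, with a median of 0.44, where 33.2% of all tested genes were higher and 30.4% lower, with a median of 0.0082. Over 11 libraries, 8 were higher and 1 lower, against 21.9% and 19.1% of all tested genes. The share of chains that were higher was thus close to the share of all genes over these 11 libraries. Without Col26a1, the counts over 16 libraries were 20 of 36 higher on finasteride in the mutant and 22 higher in mutant than wild type on finasteride.

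The difference between the 2 finasteride effects, mutant minus wild type, was tested as an interaction. It was positive and passed for 26 of 37 chains and was negative and passed for 2, Col4a6 and Col4a5, with a median of 0.96. Without Col26a1, 25 of 36 were positive. Of all tested genes, 29.4% passed with a positive and 27.1% with a negative interaction, and the median was -0.022. Over 11 libraries, 17 chains passed with a positive and the same 2 with a negative interaction, against 17.1% and 12.3% of all tested genes. Quantile normalization of the libraries shifted the median interaction of all tested genes to -0.16, and 23 chains then passed with a positive and 5 with a negative one, with a median of 0.82. It also changed the share of higher calls among all called genes to 58.0% for finasteride in wild type, 41.5% for finasteride in the mutant, 41.4% for genotype on finasteride and 39.7% for the interaction, against 45.8%, 53.0%, 52.2% and 52.0% in the deposited values. For 10 chains both finasteride effects passed with opposite signs, higher in mutant and lower in wild-type prostates, namely Col5a2, Col6a3, Col6a5, Col6a6, Col8a2, Col9a2, Col11a1, Col12a1, Col14a1 and Col28a1. Col4a6 alone passed in both with the opposite pair of signs, and no chain passed in both with the same sign. How many of all tested genes passed in both comparisons, in any pair of signs, was not counted. These counts are therefore not read as particular to collagen chains. Over 11 libraries no chain passed in both finasteride comparisons, in any pair of signs, since the 6 lower in wild type (Col3a1, Col1a2, Col5a2, Col6a3, Col8a1 and Col12a1) and the 9 higher in the mutant shared no member. At an unadjusted p under 0.05 with limma, 14 chains were lower in wild type and 13 higher in the mutant over these 11.

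**Figure D2:**
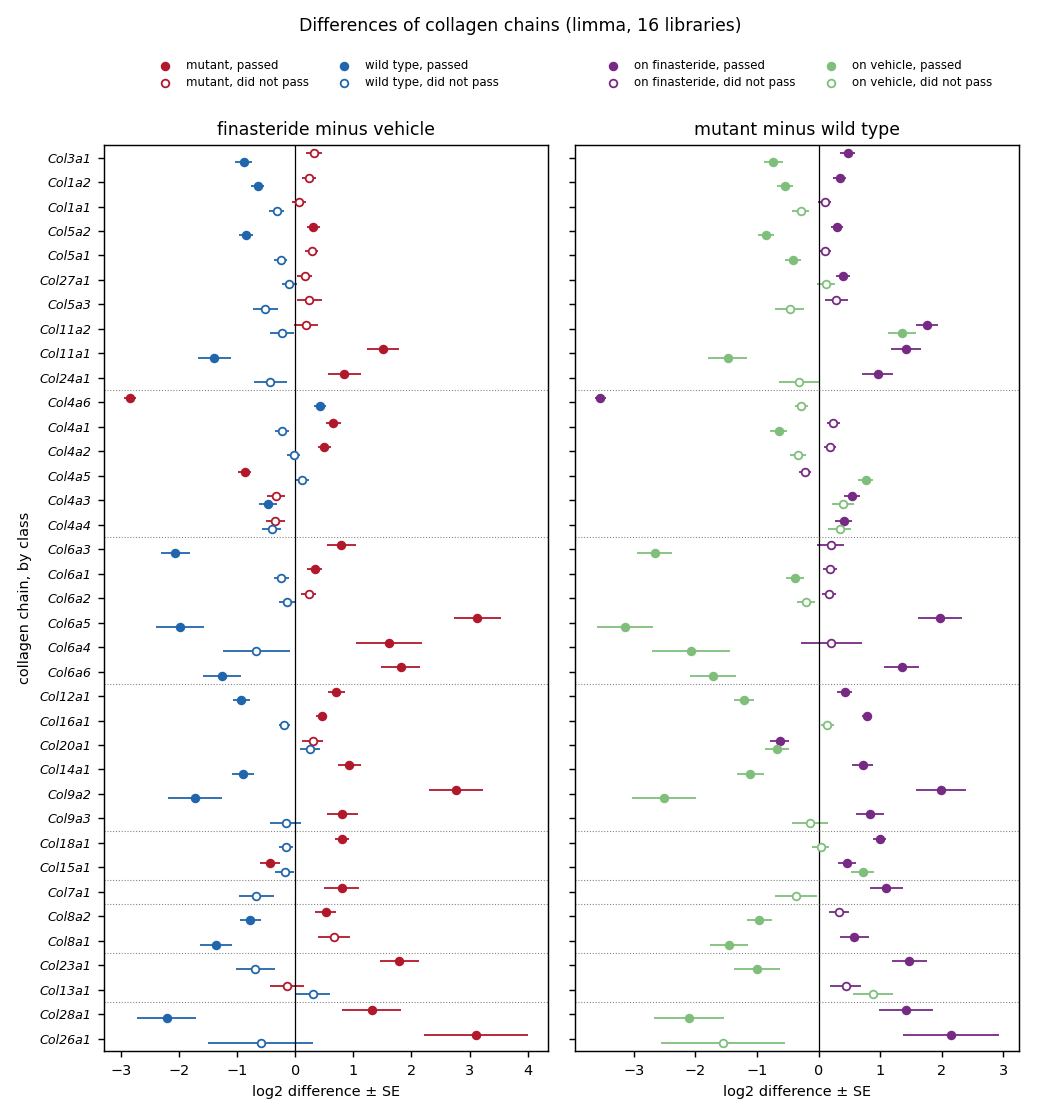
Log2 difference ± SE of each expressed chain (rows, grouped by class) between finasteride and vehicle (left panel, in mutant and in wild-type mice) and between mutant and wild type (right panel, on finasteride and on vehicle). Filled points passed the adjusted threshold of 0.05 over 16 libraries. Among chains with filled points in both colours of the left panel, those for mutant mice lie to the right of 0 and those for wild-type mice to the left, except Col4a6, at -2.84 ± 0.10 in the mutant and 0.42 ± 0.10 in wild type.

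Because these are bulk samples, fewer cells of a type and less RNA per cell cannot be told apart, and markers of several cell types also differed between groups. Values of a marker list were summed on the linear scale and are given as the log2 of that sum. Counts of markers are read beside the shares of all tested genes. On finasteride in the mutant, 25.7% were higher over 16 libraries and 10.99% over 11. In wild type, 18.4% were higher and 21.7% lower over 16 libraries, and 3.65% and 5.06% over 11. On vehicle, 17.5% were lower in the mutant over 16 libraries and 5.33% over 11. The 8 fibroblast markers summed to 13.22 to 13.85 in mutant finasteride, 12.83 to 13.04 in mutant vehicle, 12.87 to 13.47 in wild-type finasteride and 13.79 to 14.001 in wild-type vehicle libraries. Of these 8, 6 were higher on finasteride in the mutant, 3 were lower and 1 higher on finasteride in wild type, and 5 were lower in mutant than wild-type mice on vehicle. Over 11 libraries these counts were 1 higher in the mutant, 1 lower and none higher in wild type, and 2 lower on vehicle. The 5 macrophage markers, all 5 of which were higher on finasteride in the mutant over 16 and over 11 libraries, summed to 11.20 to 11.55 in mutant finasteride, 10.09 to 10.25 in mutant vehicle, 9.98 to 10.57 in wild-type finasteride and 10.68 to 11.09 in wild-type vehicle libraries. All 7 smooth muscle markers were higher on finasteride in the mutant, as were 6 of 7 endothelial markers. Over 11 libraries 1 of 7 smooth muscle markers passed there (6 at an unadjusted p under 0.05 with limma), and 6 of 7 endothelial markers did. On finasteride in wild type, where most chains had differences below 0, 1 smooth muscle marker was higher and none lower (median 0.20). There 1 endothelial marker was higher and 3 lower, and 4 macrophage markers were lower. On vehicle, 1 smooth muscle, 2 endothelial and 5 macrophage markers were lower in the mutant. The counts of 1 of 7 markers in wild type and on vehicle were close to the shares of all tested genes. The 2 of 7 endothelial markers lower on vehicle were also near that share. In wild type over 11 libraries, no smooth muscle marker passed, 1 endothelial marker was higher and 1 lower, and 2 macrophage markers were lower. Smooth muscle markers summed to 16.55 to 16.91 in mutant finasteride, 15.93 to 16.22 in mutant vehicle, 16.34 to 17.05 in wild-type finasteride and 16.27 to 16.58 in wild-type vehicle libraries. The endothelial sums were 11.21 to 11.80, 10.58 to 10.65, 10.86 to 11.12 and 10.87 to 11.04 in the same order of groups.

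Markers of neighbouring tissues also differed. The 5 adipocyte markers summed to 10.35 to 10.69 in mutant finasteride, 8.38 to 9.15 in mutant vehicle, 6.13 to 9.64 in wild-type finasteride and 10.28 to 10.87 in wild-type vehicle libraries, and all 5 were lower on finasteride in wild type (4 over 11 libraries). Of all tested genes, 21.7% were lower in that comparison over 16 libraries and 5.06% over 11. Lep was below the level for expression in all wild-type finasteride libraries. The 5 Schwann cell and nerve markers summed to 10.10 to 11.03 in mutant finasteride, 10.26 to 10.37 in mutant vehicle, 10.54 to 10.72 in wild-type finasteride and 10.73 to 11.53 in wild-type vehicle libraries. Secretory genes of the seminal vesicle, a gland next to the prostate, summed to 16.65 to 21.54 in mutant finasteride, 16.61 to 17.92 in mutant vehicle, 9.40 to 14.34 in wild-type finasteride and 9.82 to 21.68 in wild-type vehicle libraries. The 6 striated muscle markers summed to 12.01 to 12.48, 11.83 to 12.07, 11.50 to 12.52 and 11.40 to 11.62 in the same order of groups, and Myh1, Myh2 and Myh4 were below the level for expression in all mutant vehicle libraries. The luminal epithelial markers were all above the level for expression and summed to 15.15 to 15.81 over the 16 libraries. Basal epithelial markers summed to 12.11 to 12.73 in mutant finasteride, 12.35 to 12.38 in mutant vehicle, 11.37 to 11.77 in wild-type finasteride and 11.84 to 11.93 in wild-type vehicle libraries. The part of these cell types in the collagen results was not tested.

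Summed over their members on the linear scale, the classes ran in different orders across the groups. The 10 fibrillar chains summed to a log2 level of 13.23 ± 0.05 in mutant finasteride (SD, n = 5), 12.99 ± 0.09 in mutant vehicle (n = 3), 12.90 ± 0.26 in wild-type finasteride (n = 5) and 13.54 ± 0.06 in wild-type vehicle libraries (n = 3). The 6 type IV chains summed to 12.80 ± 0.13, 14.02 ± 0.10, 14.55 ± 0.10 and 14.25 ± 0.11 in the same groups. The 21 chains of all other classes summed to 13.87 ± 0.16, 13.23 ± 0.04, 13.34 ± 0.28 and 14.17 ± 0.16. The mean of these sums was highest in wild-type vehicle libraries for fibrillar and other chains, although for other chains mutant finasteride libraries, at 13.68 to 14.05, overlapped wild-type vehicle libraries, at 14.04 to 14.34. As a mean of log2 levels, the order of these groups turned, with fibrillar chains at 8.39 ± 0.13 in mutant finasteride and 8.34 ± 0.09 in wild-type vehicle libraries, and other chains at 8.21 ± 0.27 and 8.16 ± 0.11 in the same groups, each a difference within the SD. Type IV chains were lowest in mutant finasteride libraries on both scales.

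Type IV chains made up 22.5% ± 0.60 of the summed collagen level in mutant finasteride libraries, 48.4% ± 2.24 in mutant vehicle, 57.0% ± 5.71 in wild-type finasteride and 39.1% ± 0.34 in wild-type vehicle libraries. Without Col4a6, the other 5 type IV chains summed to 12.43 ± 0.15 in mutant finasteride, 12.30 ± 0.01 in mutant vehicle, 12.29 ± 0.19 in wild-type finasteride and 12.39 ± 0.09 in wild-type vehicle libraries, and the groups overlapped. The finasteride difference of the type IV sum in the mutant was -1.23 with Col4a6 and 0.13 without it. Fibrillar chains made up 30.4% ± 2.55, 23.7% ± 2.03, 18.2% ± 2.57 and 23.9% ± 0.997 of the sum in mutant finasteride, mutant vehicle, wild-type finasteride and wild-type vehicle libraries. Sums give most weight to the most abundant chains and shares depend on one another, so both are given as descriptions with no test. Taken as a mean of log2 levels in place of a sum, type IV chains differed by 0.04 between mutant and wild type on vehicle and by -0.10 between finasteride and vehicle in wild type, opposite in sign to the sums (-0.22 and 0.30). Over the 11 libraries, the 12 differences of fibrillar, type IV and other sums between pairs of groups had the same signs as over 16.

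**Figure D3:**
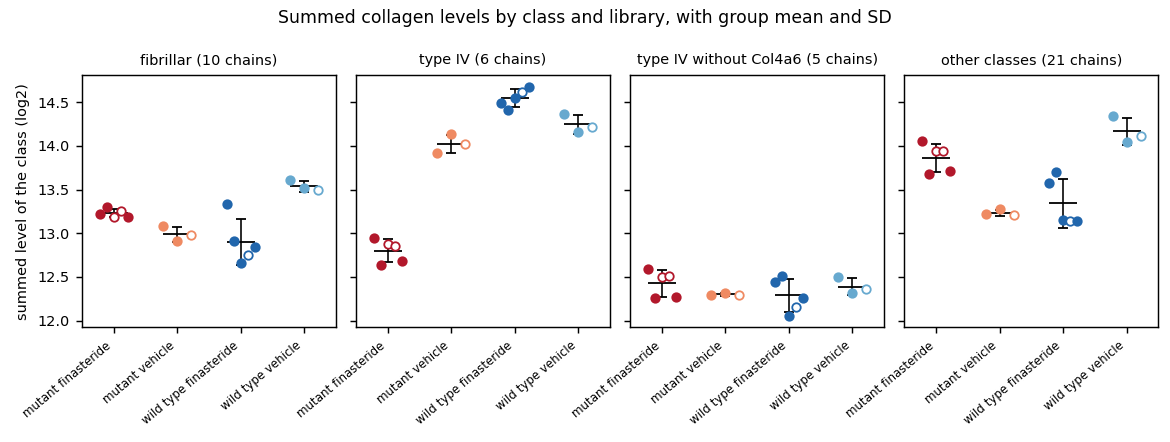
Summed level (log2 of the sum of linear values, vertical axis) of the fibrillar chains, the type IV chains, the type IV chains without Col4a6 and all other classes in each library, by group, with the group mean and SD. Open points are the 5 mixture-like libraries. The type IV sums of mutant finasteride libraries lie at 12.63 to 12.94, below the other 3 groups, whereas the sums without Col4a6 overlap.

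Among type IV chains, which assemble as Col4a1 with Col4a2, Col4a3 with Col4a4 and Col4a5, or Col4a5 with Col4a6, the largest differences were in Col4a6. Its log2 level was 10.74, 10.52, 10.73, 10.62 and 10.68 in mutant finasteride libraries and 13.36, 13.65 and 13.50 in mutant vehicle libraries. In wild type it was 14.10, 13.96, 14.27, 14.32 and 14.38 on finasteride and 13.90, 13.69 and 13.75 on vehicle. All 5 mutant finasteride libraries lay below every other library, and all wild-type finasteride libraries lay above the wild-type vehicle ones. The finasteride difference in the mutant was -2.84 ± 0.10 (adjusted p = 5.61e-11), and -2.86 (adjusted p = 1.91e-05) over 11 libraries. In wild type the change was 0.42 ± 0.10 (adjusted p = 0.00404), which did not pass over 11 libraries. The mutant minus wild-type difference was -3.54 ± 0.09 (adjusted p = 3.37e-13) on finasteride, and -0.28 ± 0.11 (adjusted p = 0.0692) on vehicle, which did not pass (95% interval -0.51 to -0.04). Under quantile normalization the difference on vehicle was -0.42 and passed (adjusted p = 0.00695 with limma). The interaction was -3.27 ± 0.14 (adjusted p = 8.85e-10), and -3.24 (adjusted p = 6.75e-05) over 11 libraries.

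Col4a5, the partner chain encoded next to Col4a6 on the X chromosome in the opposite direction, stood at 10.22, 9.66, 10.20, 10.06 and 10.002 in mutant finasteride, 10.83, 10.96 and 10.89 in mutant vehicle, 10.23, 10.30, 10.12, 10.23 and 10.35 in wild-type finasteride and 10.30, 9.94 and 10.13 in wild-type vehicle libraries. Here the mutant vehicle libraries were the highest, and the other 3 groups overlapped. Finasteride lowered Col4a5 in the mutant, with a difference of -0.87 ± 0.11 (adjusted p = 1.78e-05), and -0.94 (adjusted p = 0.00468) over 11 libraries. On vehicle, mutant libraries were higher than wild type by 0.77 ± 0.12 (adjusted p = 2.46e-04), and by 0.78 (adjusted p = 0.0247) over 11 libraries. In wild type, the finasteride difference was 0.12 ± 0.11 and did not pass (95% interval -0.11 to 0.36). The interaction was -0.99 ± 0.16 (adjusted p = 9.46e-05). Within a library, Col4a6 exceeded Col4a5 by 0.63 ± 0.14 log2 units in mutant finasteride, 2.61 ± 0.08 in mutant vehicle, 3.96 ± 0.20 in wild-type finasteride and 3.66 ± 0.07 in wild-type vehicle libraries (SD). The pair is nearly equal in exon length (6648 and 6536 bases), so these differences barely change per kilobase.

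In RefSeq's annotation of build GRCm38.p6, the start sites of Col4a5 and Col4a6 lie 1343 bp apart, head to head. The files use build mm9, so the sequences were matched by symbol and not by position. The 250 bases before each start are shown because these 2 chains were the ones that passed with a negative interaction. Capitals mark the CCAAT box and the GC box, which is searched as GGGCGG and reads as CCGCCC on the other strand.
Col4a6 (chrX:141474077-141474326, minus strand): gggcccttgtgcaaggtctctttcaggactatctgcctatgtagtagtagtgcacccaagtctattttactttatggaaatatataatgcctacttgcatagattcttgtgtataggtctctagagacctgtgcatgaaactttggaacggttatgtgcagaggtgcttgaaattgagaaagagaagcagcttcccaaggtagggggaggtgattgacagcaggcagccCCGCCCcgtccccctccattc
Col4a5 (chrX:141475169-141475418, plus strand): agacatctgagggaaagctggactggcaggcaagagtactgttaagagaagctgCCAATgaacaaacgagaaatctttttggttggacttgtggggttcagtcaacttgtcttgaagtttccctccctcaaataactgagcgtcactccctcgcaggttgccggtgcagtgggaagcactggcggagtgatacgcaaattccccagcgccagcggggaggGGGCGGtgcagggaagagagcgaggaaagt
Searched on both strands, with no overlap between matches, the Col4a6 window held 1 GC box, 21 bases before the start, and no CCAAT box, no TATA box (TATAAA) and no half-site of the androgen receptor motif (AGAACA). The Col4a5 window held 1 CCAAT box, 196 bases before the start, and 1 GC box at 30 bases, and neither of the others. Of 32851 RefSeq promoter windows of this length, 33.8% held a CCAAT box, 12.4% a TATA box, 32.7% a GC box and 16.1% the half-site. Promoters were found for 34 of the 43 chains, and 12, 4, 21 and 2 of these genes held the 4 motifs in that order. A match of letters is a description and does not show that a factor binds there.

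The remaining type IV chains had smaller log2 differences between groups. Col4a1, the most widespread type IV chain, was at 11.44, 11.09, 11.34, 11.37 and 11.09 in mutant finasteride, 10.62, 10.61 and 10.59 in mutant vehicle, 11.19, 11.37, 10.77, 10.88 and 10.90 in wild-type finasteride and 11.38, 11.18 and 11.21 in wild-type vehicle libraries. All mutant vehicle libraries lay below all the others. Finasteride raised it in the mutant by 0.66 ± 0.12 (adjusted p = 4.32e-04), and by 0.59 (adjusted p = 0.0430) over 11 libraries. Its partner Col4a2 ranged over 10.50 to 10.83 (median 10.74), 10.18 to 10.24 (median 10.23), 10.24 to 10.82 (median 10.51) and 10.50 to 10.59 (median 10.56) in the same groups, and rose on finasteride in the mutant by 0.50 ± 0.11 (adjusted p = 0.00197), which did not pass over 11 libraries (0.47, adjusted p = 0.0667). The start sites of Col4a1 and Col4a2 lie 21 bp apart in the same annotation and the genes overlap there, as do Col4a3 and Col4a4, so reads at the overlaps cannot be assigned without strand, which the sources used here do not state.

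Col4a3 and Col4a4 are best known from the basement membranes of kidney and lung. Col4a3 ranged over 6.86 to 7.68 (median 7.46) in mutant finasteride, 7.59 to 7.81 (median 7.72) in mutant vehicle, 6.58 to 7.07 (median 6.87) in wild-type finasteride and 7.22 to 7.38 (median 7.33) in wild-type vehicle libraries. Col4a4 ranged over 6.68 to 7.45 (median 7.19) in mutant finasteride, 7.29 to 7.61 (median 7.49) in mutant vehicle, 6.47 to 6.88 (median 6.80) in wild-type finasteride and 6.91 to 7.32 (median 7.13) in wild-type vehicle libraries. On finasteride both were higher in mutant than in wild type, Col4a3 by 0.54 ± 0.13 (adjusted p = 0.00254) and Col4a4 by 0.41 ± 0.14 (adjusted p = 0.0210), where under quantile normalization Col4a3 fell to 0.12 (adjusted p = 0.345) and Col4a4 turned to -0.06. Neither passed over 11 libraries, at 0.45 (adjusted p = 0.0860) and 0.26 (adjusted p = 0.289). In wild type, finasteride lowered Col4a3, with a difference of -0.48 ± 0.16 (adjusted p = 0.0240), a call lost over 11 libraries and under quantile normalization (-0.18, adjusted p = 0.273). In all, 2 of 6 type IV chains were higher and 2 lower on finasteride in the mutant, and 1 was higher and 1 lower on finasteride in wild type, with medians of -0.34 and -0.13. These counts of 6 type IV chains were close to the shares of all tested genes, 25.7% and 22.8% in the mutant and 18.4% and 21.7% in wild type. Over 11 libraries 1 was higher and 2 lower in the mutant, and none passed in wild type (1 higher and 1 lower at an unadjusted p under 0.05 with limma).

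**Figure D4:**
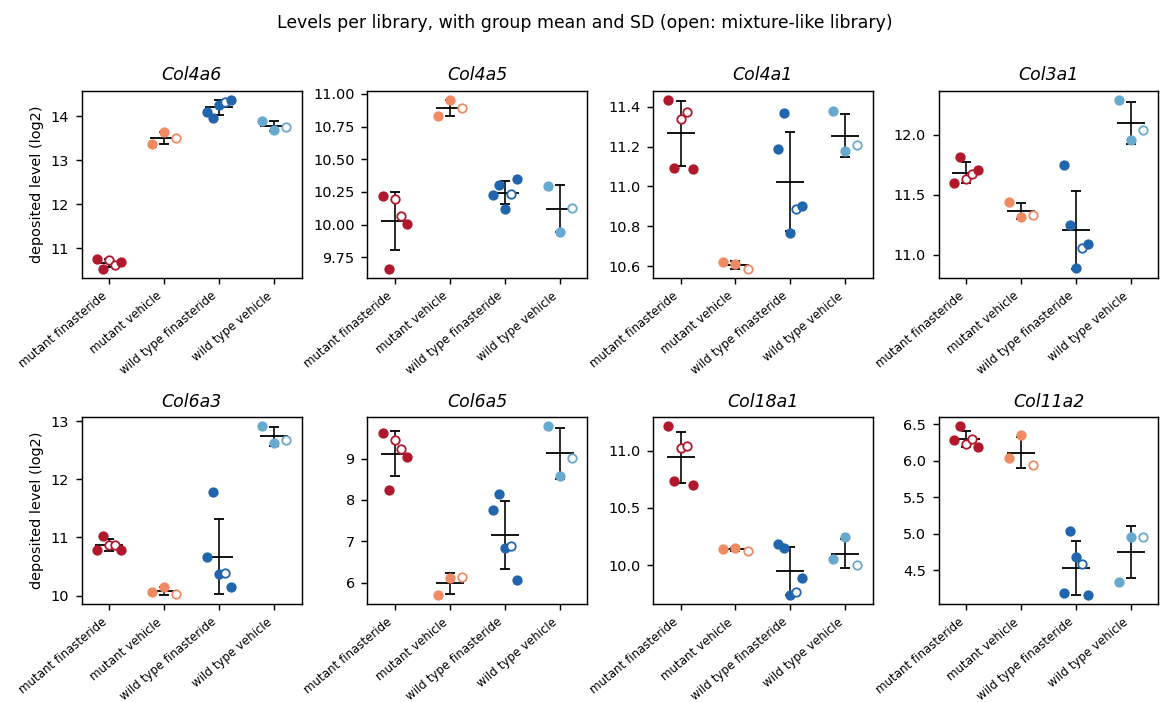
Deposited log2 level (vertical axis, with its own range in each panel) of 8 chains in every library, by group, with the group mean and SD. Open points are the 5 mixture-like libraries. Col4a6 is lowest and Col18a1 highest in the 5 mutant finasteride libraries, Col6a3 is highest in the 3 wild-type vehicle libraries, and Col11a2 is higher in all mutant than in all wild-type libraries.

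Of 10 expressed fibrillar chains, 4 were lower and none higher on finasteride in wild type, with a median of -0.47, and 5 were lower and 1 higher in mutant than in wild-type mice on vehicle, with a median of -0.44. On finasteride in the mutant 3 were higher and none lower, with a median of 0.26. The shares of all tested genes were 21.7% lower in wild type, 17.5% lower on vehicle and 25.7% higher in the mutant. The last share was close to the 3 of 10 fibrillar chains. Over 11 libraries 3 were lower in wild type, 1 was lower and 1 higher on vehicle, and 1 was higher in the mutant. Where none is given as higher or lower among fibrillar, type VI and FACIT chains over 16 libraries, none was at an unadjusted p under 0.05 with limma either. Col3a1, the type III chain of reticular fibres and the most abundant fibrillar chain, was at 11.59, 11.82, 11.63, 11.67 and 11.70 in mutant finasteride, 11.44, 11.32 and 11.33 in mutant vehicle, 11.74, 11.25, 10.89, 11.05 and 11.09 in wild-type finasteride and 12.29, 11.95 and 12.04 in wild-type vehicle libraries. The wild-type vehicle libraries lay above all others, and replicate 1 stood above the rest of the wild-type finasteride group. On vehicle, mutant libraries were lower than wild type, with a difference of -0.73 ± 0.16 (adjusted p = 0.00250), which did not pass over 11 libraries (-0.75, adjusted p = 0.0753). In wild type, finasteride lowered Col3a1, with a difference of -0.89 ± 0.14 (adjusted p = 3.28e-04), and of -0.88 (adjusted p = 0.0312) over 11 libraries. In the mutant the finasteride difference was 0.32 ± 0.14 and did not pass (95% interval 0.02 to 0.62, adjusted p = 0.0715). Under quantile normalization that difference was 0.51 and passed (adjusted p = 0.00699 with limma). The interaction was 1.21 ± 0.20 (adjusted p = 1.35e-04), and 1.21 (adjusted p = 0.0137) over 11 libraries.

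Of the 2 chains of type I collagen, the main protein of fibrous tissue, only Col1a2 passed in any comparison of the deposited values. Col1a2 stood at 11.44, 11.39, 11.42, 11.45 and 11.35 in mutant finasteride, 11.31, 11.08 and 11.14 in mutant vehicle, 11.54, 11.07, 10.86, 10.89 and 10.98 in wild-type finasteride and 11.75, 11.71 and 11.69 in wild-type vehicle libraries. The 3 wild-type vehicle libraries lay above the other 13. It fell on finasteride in wild type, with a difference of -0.65 ± 0.12 (adjusted p = 6.80e-04), and of -0.62 (adjusted p = 0.0451) over 11 libraries, and its interaction was 0.88 ± 0.16 (adjusted p = 3.53e-04). Col1a1 ranged over 10.74 to 11.11 (median 10.85) in mutant finasteride, 10.66 to 10.91 (median 10.83) in mutant vehicle, 10.54 to 11.18 (median 10.66) in wild-type finasteride and 11.03 to 11.22 (median 11.03) in wild-type vehicle libraries. It passed in no comparison, and its finasteride difference in wild type was -0.32 ± 0.12 (adjusted p = 0.0510) with a 95% interval of -0.59 to -0.06. Without wild-type finasteride replicate 1, the highest of its group, that difference passed. Under quantile normalization it also passed (-0.40, adjusted p = 0.0178 with limma), as did the interaction (0.63, adjusted p = 0.00636) and both genotype comparisons. The difference between the 2 chains in their response was not tested. Within a library, and not per length, the level of Col1a1 minus that of Col1a2 was -0.54 ± 0.15 log2 units in mutant finasteride, -0.38 ± 0.06 in mutant vehicle, -0.30 ± 0.10 in wild-type finasteride and -0.62 ± 0.12 in wild-type vehicle libraries (SD).

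Col5a2, a chain of the type V collagen that sets fibril diameter, ranged over 8.97 to 9.25 (median 9.18) in mutant finasteride, 8.81 to 8.83 (median 8.82) in mutant vehicle, 8.61 to 9.21 (median 8.73) in wild-type finasteride and 9.57 to 9.74 (median 9.72) in wild-type vehicle libraries. It was lower in mutant than wild type on vehicle, with a difference of -0.85 ± 0.13 (adjusted p = 1.54e-04), and of -0.84 (adjusted p = 0.0195) over 11 libraries, and lower on finasteride in wild type, with a difference of -0.84 ± 0.12 (adjusted p = 1.13e-04), and of -0.77 (adjusted p = 0.0242) over 11 libraries. In the mutant finasteride raised it by 0.31 ± 0.12 (adjusted p = 0.0369), which did not pass over 11 libraries (adjusted p = 0.253). Its relative Col5a1 ranged over 8.98 to 9.18 (median 9.06) in mutant finasteride, 8.72 to 8.86 (median 8.79) in mutant vehicle, 8.77 to 9.34 (median 8.84) in wild-type finasteride and 9.07 to 9.34 (median 9.21) in wild-type vehicle libraries. The third type V chain, Col5a3, ranged over 7.18 to 8.21 (median 7.90) in mutant finasteride, 7.45 to 7.66 (median 7.54) in mutant vehicle, 7.08 to 7.79 (median 7.65) in wild-type finasteride and 7.76 to 8.38 (median 7.92) in wild-type vehicle libraries. Both passed with a positive interaction, of 0.53 ± 0.16 and 0.76 ± 0.30, and neither did so over 11 libraries. Col5a1 was also lower in mutant than wild type on vehicle, with a difference of -0.42 ± 0.13 (adjusted p = 0.0207), which did not pass over 11 libraries (-0.49, adjusted p = 0.123).

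The 2 chains of type XI collagen, which seeds thin fibrils and is best known from cartilage, differed in opposite directions between genotypes on vehicle. Col11a1 was at 5.81, 4.80, 5.71, 5.25 and 5.12 in mutant finasteride, 3.79, 3.56 and 4.15 in mutant vehicle, 3.41, 4.49, 3.83, 4.19 and 3.65 in wild-type finasteride and 4.95, 5.32 and 5.65 in wild-type vehicle libraries. On vehicle and finasteride the groups did not overlap within either genotype. On vehicle Col11a1 was lower in mutant than wild type, with a difference of -1.47, a call lost over 11 libraries. On finasteride it was higher in mutant than wild type, at means of 5.34 and 3.91, and passed. It rose on finasteride in the mutant by 1.51 ± 0.28 (adjusted p = 4.70e-04), and by 1.57 (adjusted p = 0.0180) over 11 libraries, and fell on finasteride in wild type, with a difference of -1.39 ± 0.28 (adjusted p = 0.00152), which did not pass over 11 libraries (-1.29, adjusted p = 0.0528). Col11a2 was at 6.29, 6.48, 6.22, 6.29 and 6.19 in mutant finasteride, 6.03, 6.35 and 5.94 in mutant vehicle, 4.19, 5.04, 4.68, 4.58 and 4.16 in wild-type finasteride and 4.34, 4.96 and 4.96 in wild-type vehicle libraries. All 8 mutant libraries lay above all 8 wild-type libraries. Mutant exceeded wild type by 1.76 ± 0.18 (adjusted p = 6.57e-07) on finasteride and by 1.35 ± 0.23 (adjusted p = 4.22e-04) on vehicle, and by 1.801 (adjusted p = 5.09e-04) and 1.54 (adjusted p = 0.0213) over 11 libraries. Its interaction was 0.41 ± 0.29 and did not pass (95% interval -0.22 to 1.03). Among the less studied fibrillar chains, Col24a1 ranged over 3.51 to 5.01 (median 4.56) in mutant finasteride, 3.42 to 3.63 (median 3.53) in mutant vehicle, 3.07 to 3.71 (median 3.55) in wild-type finasteride and 3.47 to 4.18 (median 3.87) in wild-type vehicle libraries. Col27a1 ranged over 7.70 to 8.23 (median 7.95) in mutant finasteride, 7.76 to 7.83 (median 7.80) in mutant vehicle, 7.29 to 7.82 (median 7.55) in wild-type finasteride and 7.57 to 7.74 (median 7.69) in wild-type vehicle libraries. Both were higher in mutant than wild type on finasteride, by 0.96 ± 0.25 (adjusted p = 0.00367) and 0.39 ± 0.11 (adjusted p = 0.00731), and neither passed over 11 libraries.

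Type VI collagen, whose alpha-3 chain also gives rise to the adipocyte-derived peptide endotrophin, had 6 expressed chains. Of these, 5 were lower and none higher in mutant than wild type on vehicle, with a median of -1.90, and 5 were higher and none lower on finasteride in the mutant, with a median of 1.20. In wild type 3 were lower on finasteride and none higher, with a median of -0.96. Beside the 5 lower on vehicle, 5 higher in the mutant and 3 lower in wild type stood 17.5%, 25.7% and 21.7% of all tested genes. Over 11 libraries 2 type VI chains were lower on vehicle, 2 higher on finasteride in the mutant and 1 lower on finasteride in wild type, with medians of -1.90, 1.24 and -0.75. Col6a3 was at 10.78, 11.03, 10.88, 10.87 and 10.79 in mutant finasteride, 10.06, 10.15 and 10.02 in mutant vehicle, 10.67, 11.78, 10.37, 10.39 and 10.15 in wild-type finasteride and 12.92, 12.63 and 12.67 in wild-type vehicle libraries. The 3 wild-type vehicle libraries lay above all others, and replicate 2 stood over 1 log2 unit above the rest of the wild-type finasteride group. The same replicate had the highest adipocyte marker sum of its group, 9.64 against 6.13 to 7.18, and the part of this in the result was not tested. Mutant libraries on vehicle were lower than wild type, with a difference of -2.66 ± 0.28 (adjusted p = 6.62e-06), and of -2.67 (adjusted p = 0.00463) over 11 libraries. In wild type finasteride lowered Col6a3, with a difference of -2.07 ± 0.25 (adjusted p = 5.17e-05), and of -2.03 (adjusted p = 0.0166) over 11 libraries. In the mutant it rose by 0.79 ± 0.25 (adjusted p = 0.0167), which did not pass over 11 libraries (0.76, adjusted p = 0.173).

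Col6a1 and Col6a2, the chains that join Col6a3 in the common form of type VI collagen, moved less. Col6a1 ranged over 10.65 to 10.86 (median 10.78) in mutant finasteride, 10.37 to 10.50 (median 10.43) in mutant vehicle, 10.30 to 11.02 (median 10.47) in wild-type finasteride and 10.69 to 11.01 (median 10.75) in wild-type vehicle libraries. Its calls, -0.38 ± 0.14 (adjusted p = 0.0470) for mutant against wild type on vehicle and 0.33 ± 0.12 (adjusted p = 0.0375) for finasteride in the mutant, were near the threshold and did not pass over 11 libraries. Col6a2 ranged over 10.22 to 10.45 (median 10.38) in mutant finasteride, 10.09 to 10.16 (median 10.12) in mutant vehicle, 9.89 to 10.67 (median 10.19) in wild-type finasteride and 10.22 to 10.45 (median 10.29) in wild-type vehicle libraries, and passed in no comparison. Under quantile normalization it passed for finasteride in the mutant (0.36), genotype on finasteride (0.29) and the interaction (0.55). Within a library, the level of Col6a3 minus that of Col6a1 was 0.10 ± 0.14 log2 units in mutant finasteride, -0.36 ± 0.08 in mutant vehicle, 0.09 ± 0.60 in wild-type finasteride and 1.92 ± 0.01 in wild-type vehicle libraries (SD). These differences are not per length, and the Col6a3 exons are longer (10852 against 4100 bases), so only their change between groups can be read. The wild-type vehicle libraries lay apart from the rest.

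Col6a4, Col6a5 and Col6a6 are later-described chains that can take the place of Col6a3. Col6a5 was at 9.62, 8.24, 9.45, 9.24 and 9.04 in mutant finasteride, 5.69, 6.11 and 6.14 in mutant vehicle, 7.76, 8.15, 6.84, 6.89 and 6.07 in wild-type finasteride and 9.79, 8.57 and 9.01 in wild-type vehicle libraries. All mutant finasteride libraries lay above all mutant vehicle libraries, and all wild-type vehicle libraries lay above all wild-type finasteride ones. Finasteride raised Col6a5 in the mutant by 3.14 ± 0.41 (adjusted p = 2.27e-05), and by 3.06 (adjusted p = 0.00747) over 11 libraries. In wild type it lowered Col6a5, with a difference of -1.98 ± 0.41 (adjusted p = 0.00183), and -1.98 (adjusted p = 0.0588) over 11 libraries did not pass. The interaction was 5.12 ± 0.58 (adjusted p = 5.08e-06), and 5.04 (adjusted p = 0.00267) over 11 libraries, the largest of all collagen chains in either fit.

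Col6a6 ranged over 4.88 to 6.09 (median 5.55) in mutant finasteride, 3.62 to 3.87 (median 3.81) in mutant vehicle, 3.65 to 4.73 (median 4.38) in wild-type finasteride and 4.73 to 5.92 (median 5.81) in wild-type vehicle libraries. Its finasteride differences were 1.82 ± 0.33 (adjusted p = 4.05e-04) in the mutant and -1.26 ± 0.33 (adjusted p = 0.00802) in wild type, of which the first also passed over 11 libraries (1.72, adjusted p = 0.0217). Col6a4 was at 6.89, 6.67, 6.65, 6.60 and 6.64 in mutant finasteride, 4.72, 5.26 and 5.24 in mutant vehicle, 8.80, 6.75, 6.26, 5.78 and 4.79 in wild-type finasteride and 7.44, 6.97 and 7.03 in wild-type vehicle libraries. The wild-type finasteride libraries ran from the lowest to the highest of these values but for 1 mutant vehicle library. It was higher on finasteride in the mutant by 1.61 ± 0.57 (adjusted p = 0.0294) and lower in mutant than wild type on vehicle, with a difference of -2.07 ± 0.64 (adjusted p = 0.0217), and neither passed over 11 libraries.

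Of 6 expressed FACIT chains, 5 were higher and none lower on finasteride in the mutant, with a median of 0.76, and 3 were lower and none higher on finasteride in wild type, with a median of -0.54. On vehicle 4 were lower and none higher in mutant than in wild type, with a median of -0.89. Beside the 5 higher in the mutant, 3 lower in wild type and 4 lower on vehicle stood 25.7%, 21.7% and 17.5% of all tested genes. Over 11 libraries 3 FACIT chains were higher in the mutant, 1 was lower in wild type and 2 were lower on vehicle. Col12a1, which coats type I fibrils in dense tissue, was at 10.42, 10.08, 10.32, 10.27 and 10.28 in mutant finasteride, 9.70, 9.52 and 9.49 in mutant vehicle, 10.26, 10.09, 9.76, 9.63 and 9.50 in wild-type finasteride and 10.96, 10.58 and 10.79 in wild-type vehicle libraries. The wild-type vehicle libraries lay above all others. It was lower in mutant than wild type on vehicle, with a difference of -1.21 ± 0.16 (adjusted p = 5.60e-05), and of -1.16 (adjusted p = 0.0136) over 11 libraries. Finasteride lowered it in wild type, with a difference of -0.93 ± 0.15 (adjusted p = 2.95e-04), and of -0.87 (adjusted p = 0.0323) over 11 libraries, and raised it in the mutant by 0.70 ± 0.15 (adjusted p = 0.00108), where 0.65 (adjusted p = 0.0556) did not pass over 11 libraries.

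The related Col14a1 ranged over 8.10 to 8.29 (median 8.27) in mutant finasteride, 7.24 to 7.35 (median 7.31) in mutant vehicle, 6.96 to 8.01 (median 7.55) in wild-type finasteride and 8.23 to 8.62 (median 8.37) in wild-type vehicle libraries. It rose on finasteride in the mutant by 0.93 ± 0.20 (adjusted p = 0.00124), and by 0.93 (adjusted p = 0.0398) over 11 libraries. Col9a2, a type IX chain that covers cartilage fibrils, was at 5.49, 6.71, 5.85, 6.29 and 6.17 in mutant finasteride, 3.37, 3.09 and 3.54 in mutant vehicle, 3.28, 5.57, 4.52, 4.34 and 2.85 in wild-type finasteride and 6.27, 5.57 and 5.68 in wild-type vehicle libraries. All mutant finasteride libraries lay above all mutant vehicle libraries, while the wild-type finasteride libraries were spread over more than 2 log2 units. Finasteride raised Col9a2 in the mutant by 2.77 ± 0.47 (adjusted p = 2.03e-04), and by 2.90 (adjusted p = 0.0177) over 11 libraries, and its interaction was 4.50 ± 0.66 (adjusted p = 4.97e-05). In wild type the difference was -1.73 ± 0.47 (adjusted p = 0.00898), which did not pass over 11 libraries. Col9a3 ranged over 4.01 to 4.84 (median 4.63) in mutant finasteride, 3.30 to 4.21 (median 3.53) in mutant vehicle, 3.33 to 4.26 (median 3.59) in wild-type finasteride and 3.82 to 3.83 (median 3.82) in wild-type vehicle libraries. It rose on finasteride in the mutant by 0.81 ± 0.26 (adjusted p = 0.0185), a call lost over 11 libraries, and the remaining type IX chain, Col9a1, was under the level for testing.

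Col16a1, which is found near basement membranes and microfibrils, ranged over 10.18 to 10.57 (median 10.41) in mutant finasteride, 9.81 to 9.9997 (median 9.95) in mutant vehicle, 9.40 to 9.80 (median 9.56) in wild-type finasteride and 9.71 to 9.81 (median 9.81) in wild-type vehicle libraries. Every mutant finasteride library lay above every other library. On finasteride, mutant exceeded wild type by 0.79 ± 0.08 (adjusted p = 1.13e-06), and by 0.79 (adjusted p = 7.39e-04) over 11 libraries. Col20a1 ranged over 8.80 to 9.07 (median 8.91) in mutant finasteride, 8.44 to 8.79 (median 8.61) in mutant vehicle, 8.88 to 9.96 (median 9.71) in wild-type finasteride and 9.23 to 9.38 (median 9.26) in wild-type vehicle libraries. It went the other way and was lower in mutant than wild type, with a difference of -0.63 ± 0.15 (adjusted p = 0.00229) on finasteride and -0.68 ± 0.20 (adjusted p = 0.0167) on vehicle, neither of which passed over 11 libraries. It was the only chain besides Col4a6 that was lower in mutant than wild type on finasteride.

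The multiplexins Col15a1 and Col18a1 are basement membrane proteoglycans whose tails can be cleaved off as restin and endostatin. Col18a1 was at 11.22, 10.74, 11.02, 11.04 and 10.70 in mutant finasteride, 10.14, 10.15 and 10.13 in mutant vehicle, 10.18, 10.15, 9.74, 9.77 and 9.89 in wild-type finasteride and 10.06, 10.24 and 10.005 in wild-type vehicle libraries. All 5 mutant finasteride libraries lay above the other 11. Finasteride raised it in the mutant by 0.80 ± 0.13 (adjusted p = 1.06e-04), and by 0.74 (adjusted p = 0.0179) over 11 libraries, and on finasteride mutant exceeded wild type by 0.995 ± 0.11 (adjusted p = 1.35e-06), and by 0.89 (adjusted p = 0.00115) over 11 libraries. In wild type the finasteride difference was -0.16 ± 0.13 and did not pass (95% interval -0.42 to 0.11). Col15a1 was highest in mutant vehicle libraries, and ranged over 9.50 to 9.73 (median 9.58) in mutant finasteride, 9.97 to 10.11 (median 10.02) in mutant vehicle, 8.81 to 9.77 (median 8.98) in wild-type finasteride and 9.08 to 9.56 (median 9.29) in wild-type vehicle libraries. It was higher in mutant than wild type on vehicle by 0.72 ± 0.19 (adjusted p = 0.00818) and on finasteride by 0.46 ± 0.14 (adjusted p = 0.0111), and neither passed over 11 libraries. In the mutant it was lower on finasteride than on vehicle, with a difference of -0.44 ± 0.17 (adjusted p = 0.0408), which was -0.53 (adjusted p = 0.155) over 11 libraries.

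Col7a1, which forms the anchoring fibrils that tie basement membrane to stroma, was at 11.29, 9.76, 10.95, 10.95 and 10.43 in mutant finasteride, 9.79 to 9.999 (median 9.84) in mutant vehicle, 8.90 to 10.08 (median 9.64) in wild-type finasteride and 9.73 to 10.72 (median 10.27) in wild-type vehicle libraries. On finasteride, mutant exceeded wild type by 1.10 ± 0.27 (adjusted p = 0.00205), which did not pass over 11 libraries (0.94, adjusted p = 0.0684). In wild type the finasteride difference was -0.67 ± 0.31 and did not pass (95% interval -1.32 to -0.01, adjusted p = 0.0947). Mutant and wild-type libraries on finasteride overlapped in mutant finasteride replicate 2, the lowest of its group. That replicate also had the lowest seminal vesicle sum of its group, 16.65 against 20.49 to 21.54. Its fibroblast, smooth muscle, endothelial and Schwann cell sums were the lowest of the group too. Its luminal, basal, macrophage and adipocyte sums were the highest. Wild-type finasteride replicate 1, with the lowest Col7a1 of its group (8.90), had the highest seminal vesicle sum there, 14.34 against 9.40 to 10.83. The part of these in the result was not tested.

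The short-chain collagens Col8a1 and Col8a2 form hexagonal lattices around vessels. Col8a1 was at 6.36, 5.37, 5.82, 5.81 and 5.60 in mutant finasteride, 5.24, 5.27 and 4.87 in mutant vehicle, 5.43, 5.49, 5.61, 4.29 and 5.22 in wild-type finasteride and 6.36, 6.86 and 6.52 in wild-type vehicle libraries. The wild-type vehicle libraries lay above all mutant vehicle and all wild-type finasteride libraries. It was lower in mutant than wild type on vehicle, with a difference of -1.45 ± 0.31 (adjusted p = 0.00217), and of -1.36 (adjusted p = 0.0288) over 11 libraries, and lower on finasteride in wild type, with a difference of -1.37 ± 0.27 (adjusted p = 0.00147), and of -1.17 (adjusted p = 0.0353) over 11 libraries. On finasteride it was higher in mutant than wild type by 0.58 ± 0.24 (adjusted p = 0.0433), which did not pass over 11 libraries (0.34, adjusted p = 0.299) and turned to -0.07 under quantile normalization. Col8a2 ranged over 7.24 to 7.54 (median 7.40) in mutant finasteride, 6.36 to 7.17 (median 7.15) in mutant vehicle, 6.78 to 7.54 (median 7.09) in wild-type finasteride and 7.83 to 7.89 (median 7.84) in wild-type vehicle libraries. It was likewise lower in mutant than wild type on vehicle, with a difference of -0.96 ± 0.20 (adjusted p = 0.00223), and of -1.10 (adjusted p = 0.0315) over 11 libraries, and lower on finasteride in wild type, with a difference of -0.77 ± 0.18 (adjusted p = 0.00410), where -0.70 (adjusted p = 0.0832) did not pass over 11 libraries.

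Of the transmembrane collagens, Col23a1 was at 10.38, 9.02, 10.18, 10.07 and 9.76 in mutant finasteride, 8.09, 8.09 and 8.09 in mutant vehicle, 8.99, 9.10, 7.67, 7.92 and 8.36 in wild-type finasteride and 9.50, 8.70 and 9.08 in wild-type vehicle libraries. All mutant finasteride libraries lay above all mutant vehicle libraries, and replicate 2 was again the lowest of the mutant finasteride group. Finasteride raised it in the mutant by 1.79 ± 0.33 (adjusted p = 4.28e-04), and by 1.63 (adjusted p = 0.0338) over 11 libraries. Col13a1, a collagen of neuromuscular junctions, ranged over 5.57 to 5.98 (median 5.73) in mutant finasteride, 5.69 to 6.10 (median 5.91) in mutant vehicle, 4.79 to 5.67 (median 5.38) in wild-type finasteride and 4.07 to 5.84 (median 5.14) in wild-type vehicle libraries, and passed in no comparison. Its difference between mutant and wild type on vehicle was 0.89 ± 0.31 (adjusted p = 0.0505). Under quantile normalization Col13a1 was not among the 4 chains that passed in no comparison.

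Col28a1, a collagen of peripheral nerve, was at 6.29, 3.83, 6.16, 6.14 and 5.39 in mutant finasteride, 4.19, 4.16 and 4.39 in mutant vehicle, 4.98, 4.83, 3.58, 3.75 and 3.52 in wild-type finasteride and 5.65, 6.72 and 6.67 in wild-type vehicle libraries. The mutant finasteride libraries overlapped each of the other groups, with replicate 2 the lowest. Col28a1 was lower on finasteride in wild type, with a difference of -2.21 ± 0.51 (adjusted p = 0.00345) and lower in mutant than wild type on vehicle, with a difference of -2.10 ± 0.57 (adjusted p = 0.0106), and neither passed over 11 libraries. Of the Schwann cell and nerve markers, 4 of 5 were lower in each of these comparisons, and 1 and none over 11 libraries (3 and 4 at an unadjusted p under 0.05 with limma). The shares of all tested genes that were lower were 21.7% and 17.5% over 16 libraries, and 5.06% and 5.33% over 11. Col26a1 was at 6.25, 1.88, 5.79, 5.69 and 5.05 in mutant finasteride, 2.65, 0.58 and 2.23 in mutant vehicle, 2.12, 5.09, 2.62, 1.90 and 2.14 in wild-type finasteride and 3.89, 2.62 and 3.61 in wild-type vehicle libraries. In 4 of 5 mutant finasteride libraries it exceeded 5 on the log2 scale, and in replicate 2 it was 1.88, next to the wild-type finasteride libraries other than replicate 2. Since it reached the level for testing only through mutant finasteride libraries, its differences from them are not read as calls. Mutant finasteride replicate 2 had the lowest seminal vesicle sum of its group, as above, while wild-type finasteride replicate 2, with 5.09 for Col26a1, had a seminal vesicle sum of 10.83 within its group's range. Wild-type vehicle replicate 2, with the lowest Col26a1 of its group (2.62), had a seminal vesicle sum of 9.82 against 20.37 and 21.68. The part of this in the result was not tested.

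Calls lost when 1 library was left out were counted chain by chain. Some were lost in many of these fits, as was Col6a1 for genotype on vehicle in 11 and Col7a1 for finasteride in the mutant in 10. For genotype on vehicle, 17 of 22 calls were kept when any 1 library was left out, and the other 5 were Col6a1, Col20a1, Col5a1, Col23a1 and Col6a4. All 5 were lost without wild-type vehicle replicate 1, and 4 of them without mutant vehicle replicate 1. For finasteride in wild type, 12 of 15 were kept, and Col4a3, Col9a2 and Col6a6 were lost without wild-type vehicle replicate 1. For finasteride in the mutant, 13 of 24 were kept. Without mutant vehicle replicate 2, 14 chains passed, 12 higher and 2 lower, and 10 of the 24 calls were lost, namely Col6a1, Col7a1, Col15a1, Col5a2, Col8a2, Col6a4, Col28a1, Col9a3, Col24a1 and Col26a1, and without replicate 3 the call of Col6a3 was lost as well. Leaving out mutant vehicle replicate 1 or 3 lost 8 calls each, and leaving out mutant finasteride replicate 1, 3 or 4 lost 7, 6 and 6. For genotype on finasteride 22 of 25 were kept, the others being Col4a4, Col8a1 and Col26a1, which were lost together without mutant finasteride replicate 1, mutant finasteride replicate 4 or wild-type finasteride replicate 4. For the interaction 24 of 28 were kept, and the others were Col5a3, Col9a3, Col6a4 and Col26a1. Without wild-type finasteride replicate 1, in contrast, 7 further chains passed for finasteride in wild type, namely Col1a1, Col6a1, Col6a2, Col15a1, Col20a1, Col5a1 and Col6a4. Under quantile normalization, 21 combinations of chain and comparison newly passed with their sign kept, among them Col3a1 and Col1a2 for finasteride in the mutant. Of the 114 calls in the 5 comparisons, 21 were lost. These were Col23a1 for genotype on vehicle, Col4a3 for finasteride in wild type, and Col6a4, Col8a2, Col9a3, Col15a1, Col24a1 and Col28a1 for finasteride in the mutant. For genotype on finasteride they were Col4a3, Col4a4, Col8a1, Col9a3, Col24a1, Col26a1, Col27a1 and Col28a1, and for the interaction Col5a3, Col6a4, Col9a3, Col24a1 and Col26a1.

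Proteins that build, cut, bind or sense collagen were counted in the same fits. Of 14 genes for propeptide processing and crosslinking, 9 were higher and 1 lower on finasteride in the mutant (median 0.51), none was higher and 7 lower on finasteride in wild type (median -0.30), and 1 was higher and 9 lower in mutant than wild type on vehicle (median -0.68). Of all tested genes, 25.7% were higher and 22.8% lower in the mutant, and 18.4% higher and 21.7% lower in wild type. On vehicle, 14.6% were higher and 17.5% lower in mutant than wild type. Over 11 libraries these counts were 3 higher and none lower in the mutant, 3 lower in wild type, and 1 higher and 3 lower on vehicle, where 10.99%, 5.06% and 5.33% of all tested genes were higher in the mutant, lower in wild type and lower on vehicle. Lox, the lysyl oxidase that crosslinks fibrils, rose by 1.03 ± 0.17 (adjusted p = 1.38e-04) on finasteride in the mutant, and by 1.01 (adjusted p = 0.0176) over 11 libraries, and fell on finasteride in wild type, with a difference of -1.10 ± 0.17 (adjusted p = 2.18e-04), and -1.02 (adjusted p = 0.0303) over 11 libraries. Its relative Loxl1 rose in the mutant by 0.94 ± 0.15 (adjusted p = 1.62e-04), and Loxl3 was higher in mutant than wild type on finasteride by 1.27 ± 0.13 (adjusted p = 7.12e-07). Of 12 tested fibril-associated proteins, 8 were higher and none lower on finasteride in the mutant (median 0.62), none was higher and 7 lower on finasteride in wild type (median -0.61), and none was higher and 8 lower in mutant than wild type on vehicle (median -0.96). Over 11 libraries 3 were higher in the mutant, 4 lower in wild type and 5 lower on vehicle. The matching shares of all tested genes were 25.7%, 21.7% and 17.5% over 16 libraries, and 10.99%, 5.06% and 5.33% over 11. Postn, a matricellular protein of collagen-rich tissue, rose by 1.12 ± 0.09 (adjusted p = 3.89e-07) in the mutant, and by 1.13 (adjusted p = 0.00155) over 11 libraries. On finasteride in wild type it fell, with a difference of -0.74 ± 0.09 (adjusted p = 6.86e-05), and was -0.73 (adjusted p = 0.0213) over 11 libraries. The fibronectin gene Fn1 rose in the mutant by 1.10 ± 0.14 (adjusted p = 2.29e-05) and the small proteoglycan gene Ogn by 1.04 ± 0.24 (adjusted p = 0.00252), while on vehicle both were lower in mutant than wild type, with differences of -1.01 ± 0.16 and -1.89 ± 0.27. Of these, the rise of Ogn did not pass over 11 libraries (0.94, adjusted p = 0.0826). Dcn, Dpt and Lum are both in this list and among the fibroblast markers, so the 2 lists are not independent.

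The intracellular enzymes that modify and fold collagen chains went in both directions. Of 19 tested, 8 were higher and 9 lower on finasteride in the mutant, and 6 were higher and 4 lower on finasteride in wild type, with medians of -0.15 and 0.05. The shares of all tested genes were 25.7% higher and 22.8% lower in the mutant, and 18.4% higher and 21.7% lower in wild type. Of the counts of these enzymes, the 4 of 19 lower in wild type were close to that share. Over 11 libraries 2 were higher and 3 lower in the mutant, and 2 higher and none lower in wild type (2 lower at an unadjusted p under 0.05 with limma). The interaction passed as positive for 7 and as negative for 11 of 19 enzymes, with a median of -0.64. Of all tested genes, 29.4% and 27.1% did so. Over 11 libraries it passed as positive for 6 and as negative for 5, against 17.1% and 12.3%. P4ha1, a catalytic subunit of prolyl 4-hydroxylase, rose on finasteride in wild type by 1.06 ± 0.14 (adjusted p = 6.86e-05), and by 1.08 (adjusted p = 0.0175) over 11 libraries. On finasteride it was lower in mutant than wild type, with a difference of -1.88 ± 0.12 (adjusted p = 3.74e-09), as were the prolyl 3-hydroxylase gene Leprel2, with a difference of -1.03 ± 0.12 (adjusted p = 2.36e-06), and Ctage5, which helps to export large cargo, with a difference of -0.75 ± 0.09 (adjusted p = 2.67e-06). Of 9 tested collagen receptors, 3 were higher and none lower on finasteride in the mutant (5 and 1 at an unadjusted p under 0.05 with limma), and none was higher and 2 were lower in wild type, with medians of 0.52 and -0.14. The 3 higher in the mutant and the 2 lower in wild type, of 9 receptors, were close to the shares of all tested genes, 25.7% and 21.7%. Over 11 libraries none passed in either comparison, and at an unadjusted p under 0.05 limma placed 2 higher in the mutant and none in wild type. Lair1, an inhibitory collagen receptor of immune cells, was higher in mutant than wild type on finasteride by 1.70 ± 0.22 (adjusted p = 8.73e-06), as was the collagen uptake receptor Mrc2 by 0.73 ± 0.13 (adjusted p = 2.01e-04), and the integrin gene Itga11 was lower in mutant than wild type on vehicle, with a difference of -1.51 ± 0.25 (adjusted p = 2.89e-04).

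Laminins and other partners of type IV collagen in the basement membrane numbered 15. Of these, 9 were higher and 3 lower in mutant than wild type on vehicle (median 0.41), 3 were higher and 3 lower on finasteride in the mutant (median 0.12), and 4 were higher and 4 lower on finasteride in wild type (median 0.09). The shares of all tested genes were 14.6% and 17.5% on vehicle, 25.7% and 22.8% in the mutant, and 18.4% and 21.7% in wild type. Of these counts in those comparisons, only the 9 higher on vehicle stood far from the shares. Among mice on finasteride, 9 of 15 were higher and 1 lower in mutant than wild type. There, 33.2% and 30.4% of all tested genes were higher and lower. Over 11 libraries 4 were higher and 1 lower on finasteride, against 21.9% and 19.1%. Over 11 libraries 5 were higher and none lower on vehicle (2 lower at an unadjusted p under 0.05 with limma), 1 was higher and 3 lower in the mutant, and 2 were higher and none lower in wild type. Lama3, a laminin chain of epithelial basement membrane, moved in the direction of Col4a6 on finasteride, with -2.11 ± 0.18 (adjusted p = 3.39e-07) in the mutant and 0.99 ± 0.18 (adjusted p = 6.34e-04) in wild type, and with -2.13 (adjusted p = 0.00116) and 1.03 (adjusted p = 0.0377) over 11 libraries. Lama1 was higher in mutant than wild type by 1.69 ± 0.13 (adjusted p = 3.53e-08) on finasteride and by 1.09 ± 0.17 (adjusted p = 1.81e-04) on vehicle.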

How the data were processed

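RNA-seq of mouse prostate was deposited by the authors as 1 table of normalized log2 values for 16 libraries, with no replicates pooled. The submitters' processing notes name CASAVA 1.8.2, TopHat, Cufflinks, DESeq, DESeq2 and build mm9. Which of these made the table, and with what normalization, is not given in the sources used here, and the base of the logarithm, 2, was inferred from the values. Groups came from the labels. limma 3.58.1 in R 4.3.3 (trended variances) was fitted to the 4 groups over the 16506 genes with a mean level of at least the log2 of 10 (about 3.3), with Benjamini-Hochberg adjustment over all of them and a threshold of 0.05. Sums were taken on the linear scale. The fit was repeated over 11 libraries, leaving out 5 close to a mixture of 2 libraries of their group (weights of at least 0.2). Close meant a root mean square residual under 0.1 log2 units, after subtracting the median residual, over genes with a log2 level of at least 8. Other alternatives were quantile normalization, other filters, a pseudocount of 10, untrended variances, the compared groups alone and each library left out. Leaving out 2 libraries that stood apart, and type IV without Col4a6, were chosen after seeing the data. Every chain is accounted for. Values by library or by range were given for each class's 3 most abundant chains, its 3 lowest adjusted p-values and the chains that passed the interaction, and the 3 lowest adjusted p-values of each other list. The chains, lists and markers were chosen with earlier results of these data known. Colgalt1 matched no row. The mutated gene and 1 gene that the rule would name are not reported here.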

Additional observations from a re-analysis of the deposited data

Results flagged for a closer look

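In 28 chains the finasteride effect differed between mutant and wild type by the limma interaction test (mutant minus wild type, log2). In the type IV class the interactions were -3.27 for Col4a6, -0.99 for Col4a5, 0.89 for Col4a1 and 0.52 for Col4a2. Among fibrillar chains they were 1.21 for Col3a1, 0.88 for Col1a2, 1.15 for Col5a2, 0.53 for Col5a1, 0.76 for Col5a3, 2.90 for Col11a1 and 1.27 for Col24a1. The type VI interactions were 2.86 for Col6a3, 0.57 for Col6a1, 2.28 for Col6a4, 5.12 for Col6a5 and 3.07 for Col6a6. In the FACIT class they were 1.64 for Col12a1, 1.83 for Col14a1, 0.64 for Col16a1, 4.50 for Col9a2 and 0.98 for Col9a3. The remaining interactions were 0.96 for Col18a1, 1.47 for Col7a1, 2.04 for Col8a1, 1.29 for Col8a2, 2.48 for Col23a1, 3.53 for Col28a1 and 3.70 for Col26a1. Col26a1 was tested only because of its level in mutant finasteride libraries, so its value is a description.

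A single library lay far from the rest of its group in 3 of 74 groups of 5 libraries examined, and chance alone sets about 1 in 20 such groups apart. Mutant finasteride replicate 1 had a log2 level of 6.89 for Col6a4, where the other 4 libraries had 6.60 to 6.67. Mutant finasteride replicate 2 had 1.88 for Col26a1, where the others had 5.05 to 6.25. Wild-type finasteride replicate 2 had 5.09 for Col26a1, where the others had 1.90 to 2.62. No cause of these values was tested.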

How the results depend on the processing

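No paired analysis was possible because the labels carry no replicate number that groups share. Over 185 combinations of chain and comparison, the direction and the side of the threshold were the same in 122 over 11 libraries, 125 under quantile normalization, 175 with no filter, 181 with untrended variances, 183 with the pseudocount and 185 with the linear filter. A further 3 over 11 libraries and 16 under quantile normalization passed in neither fit and changed sign. Fewer libraries give less power, so calls lost over 11 libraries are not read as smaller effects. There, 9 chains passed for genotype on vehicle (7 lower), 6 for finasteride in wild type (6 lower, 0 higher with limma), 11 for finasteride in the mutant (9 higher), 9 for genotype on finasteride (8 higher, 1 lower) and 17 with a positive interaction. Under quantile normalization 6 chains were higher for genotype on vehicle, 2 were higher for finasteride in wild type and 5 had a negative interaction. Col4a4 (-0.0589) and Col8a1 (-0.0732) for genotype on finasteride, and the interactions of Col4a3 (-0.46) and Col4a4 (-0.63), then changed sign. The cause was not tested. Without the 2 libraries that stood apart, 5 chains were higher for genotype on vehicle. Leaving out 1 library at a time gave 3 to 5 chains higher for genotype on vehicle, 1 to 2 higher for finasteride in wild type, and 14 to 29 called and 12 to 26 higher for finasteride in the mutant.

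Class differences depend on the scale by construction, since a sum weights abundant chains. As a mean of log2 levels, fibrillar chains differed by -0.36 (genotype on vehicle), 0.42 (finasteride in the mutant) and 0.62 (genotype on finasteride). On that scale the other classes differed by 1.06 and 0.82 in the last 2 comparisons, and type IV chains by 0.0422, -0.10, -0.54 and -0.40 for genotype on vehicle, finasteride in wild type, finasteride in the mutant and genotype on finasteride. With Col7a1, Col15a1 and Col18a1 added, the type IV sum differed by -0.78 for finasteride in the mutant and -1.19 for genotype on finasteride. Without Col4a6 it differed by -0.0889, -0.10, 0.13 and 0.14 in the same 4 comparisons.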
